A study of Homo sapiens with 6 samples.

Results

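The regions described are the CTCF and SMC1 peaks of control IMR90 cells, a line of human fetal lung fibroblasts. All peaks on chromosomes 1 to 22 and X were taken, which gave 4673 CTCF peaks and 14883 SMC1 peaks, or 19556 of the 65597 peaks in the 6 lists of the series. Peaks of the lists were matched whole, and a peak was called joint where it overlapped a peak of the other antibody by 1 bp or more. The remaining peaks are called CTCF-only and SMC1-only. The study mapped both proteins by CUT&Tag, in which an antibody directs a transposase to cut DNA beside its target, in low-passage control cells, in cells given inflachromene (ICM, a compound that binds HMGB proteins) and in senescent cells of high passage. Each antibody and state had 1 library. The control CTCF library was titled p21 and the control SMC1 library p16, with no genetic change named for any library, so antibody and passage number cannot be told apart. The ICM libraries were titled p16 for both antibodies (6 days for CTCF, with no day in the SMC1 title), and both high-passage libraries p34 with no treatment named.

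Each list holds the top 1% of enriched regions that the peak caller SEACR found in that library, so a region missing from a list is one that ranked lower, not one shown to be unbound. The files give for each peak its total signal (summed over the peak), its highest signal and the stretch where that highest signal lies, whose midpoint is called the summit. The lowest total signal listed was 14246 for CTCF and 3456 for SMC1, and median peak widths were 1797 bp and 911 bp. The depth of the libraries is unknown and no common scale for the lists is established, so signal is given as a percentile within its own list, where 100 is the highest. There is no replicate and therefore no test. Intervals are exact binomial (Clopper-Pearson) for shares and exact order-statistic intervals for medians, at 95%, and cover counting over peaks only.

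CTCF is a zinc finger protein that binds a long DNA motif and insulates chromatin domains. Cohesin is a ring of SMC1, SMC3, RAD21 and a STAG subunit that is loaded by NIPBL and MAU2, extrudes chromatin loops and is held back by CTCF at loop anchors, while WAPL releases it. Cohesin is also loaded at active promoters and enhancers without CTCF.

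Printed first are the promoter stretches that carry CTCF motif letters next to a CTCF summit, since they show what the letters look like beside a summit of either class. The letters searched were CCANNAGNNGGC, the core of the CTCF motif, on both strands of RefSeq promoter windows (250 bases before to 50 after a gene start, GRCh38.p14). The stretches below run 5′ to 3′ on the strand of the gene, with the matching letters in capitals. They are the 4 protein-coding joint promoters of highest mean percentile, and the 2 CTCF-only promoters of highest CTCF percentile, whose window held 1 match within 100 bp of the CTCF summit.
WDR38 (joint, chr9:124853210-124853231, plus strand): cGCCCTCTAGTGGccgctctgc
GSTA4 (joint, chr6:52995305-52995334, minus strand): cgcgctagaGCCGCCTGCTGGtctcaccca
ODAD3 (joint, chr19:11435262-11435291, minus strand): ctctaccccGCCCACTGTTGGgaccgcccc
KIF1B (joint, chr1:10210338-10210367, plus strand): gcccgagggCCACCAGGGGGCgctcgatgt
ABHD14B (CTCF-only, chr3:51974088-51974117, minus strand): agcttgtggCCACAAGAGGGCgccccggag
GPER1 (CTCF-only, chr7:1087067-1087096, plus strand): ttcaaatggCCAGTAGGGGGCgcactcgga
The match reads as printed for KIF1B, ABHD14B and GPER1 and on the opposite strand for WDR38, GSTA4 and ODAD3. WDR38 encodes a WD repeat protein, GSTA4 a glutathione transferase, ODAD3 a docking protein of ciliary dynein arms, KIF1B a kinesin motor and GPER1 a membrane estrogen receptor.

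Motif letters were found at CTCF summits with and without SMC1 at shares whose intervals overlap, and at SMC1-only summits at about the share of all promoters. Of all 34789 promoter windows, 2.42% held the letters (interval 2.26 to 2.59%). Windows holding the summit of a joint CTCF peak held them in 91 of 881 cases (10.3%, 8.40 to 12.5%), and windows holding a CTCF-only summit in 19 of 138 (13.8%, 8.50 to 20.7%). Windows holding the summit of an SMC1-only peak held them in 110 of 4057 (2.71%, 2.23 to 3.26%), an interval that includes the share over all windows. Most CTCF summit windows of both classes thus lacked the letters. The study screened its CTCF peaks for a consensus motif with a motif scanner. The number of control peaks it reports after that screen is close to the 4673 used here. If the peaks that passed the screen were those listed here, which was not checked, most listed CTCF peaks held a motif by that scan. Its place within the peak is not known. The scan is a different search from these exact letters, so a window without the letters may still hold a motif. A match of letters is a description of the window, and the search covered promoters only.

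Where a joint promoter window held the letters, the CTCF summit lay more often on the GGC side of them. In 129 joint pairs with 1 match, the CTCF summit was a median 40.5 bp downstream of the centre of the match, read from CCA to GGC (interval 25.5 to 59.5 bp), and downstream in 81 of them. The SMC1 summit had a median of 14.5 bp with an interval from -25.5 to 60.5 bp, which includes 0. The direct difference was small: along the match, SMC1 minus CTCF had a median of -4 bp (-22 to 0 bp). In the 63 pairs with the CTCF summit within 100 bp of the match, the SMC1 summit was also downstream. Its median there was 31.5 bp (9.5 to 72.5 bp), beside 44.5 bp for CTCF, with a median difference of 1 bp (-30 to 35 bp). In the stretches above, the CTCF summit was 36.5 bp downstream at WDR38, 65.5 bp at GSTA4, 9.5 bp at ODAD3, 38.5 bp at KIF1B, 25.5 bp at ABHD14B and 33.5 bp at GPER1. The SMC1 summit stood 191.5 bp, -3.5 bp, 10.5 bp and 66.5 bp from the match at the joint genes WDR38, GSTA4, ODAD3 and KIF1B, so it was close to the letters at 3 of these 4 promoters.

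Most CTCF peaks carried SMC1, and most SMC1 peaks lay away from CTCF. Joint peaks made up 75.8% of the CTCF list (3542 of 4673, interval 74.5 to 77.0%) and 25.2% of the SMC1 list (3757 of 14883, 24.5 to 25.9%). CTCF-only peaks numbered 1131 and SMC1-only peaks 11126. The SMC1 list was the longer, and when it was reduced to the CTCF list's length by total signal the shares were 39.8% of CTCF peaks and 40.6% of SMC1 peaks. The lists met mostly in single pairs: 3336 joint CTCF peaks had 1 SMC1 partner, 196 had 2 and 10 had 3. In 77.2% of the 3758 overlapping pairs the SMC1 peak lay wholly inside the CTCF peak.

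The 3 CTCF peaks with 3 SMC1 partners and the highest total signal were all wide. The one nearest PDGFRA, the platelet-derived growth factor receptor of mesenchymal cells, spanned 9029 bp on chr4:54226485-54235513 with its summit 4111 bp into the gene. The others spanned 8409 bp beside the non-coding gene LINC02298 and 4678 bp at the 5′ end of ALOXE3, an epidermal lipoxygenase.

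Joint peaks ranked higher than the others in both lists. The median total-signal percentile was 56.2 for joint CTCF peaks (interval 54.6 to 58.0) and 31.3 for CTCF-only peaks (29.5 to 33.2), which is a difference of 24.9 points. In the SMC1 list the medians were 69.1 (67.3 to 70.4) and 44.1 (43.2 to 45.0), a difference of 24.98 points. By highest signal the differences were 19.8 and 19.0 points. In the units of each list, median total signal was 24580 against 18663 for CTCF and 7713 against 5357.5 for SMC1, or 1.32 and 1.44 times as high in joint peaks. Joint peaks were also wider, at a median 1835.5 bp against 1683 bp for CTCF and 1047 bp against 872 bp for SMC1, and a wider peak has more bases on which to overlap. With every peak set to 1 kb around its summit the joint share of CTCF peaks was 73.4% and the rank differences were 22.8 and 24.99 points.

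**Figure D1:**
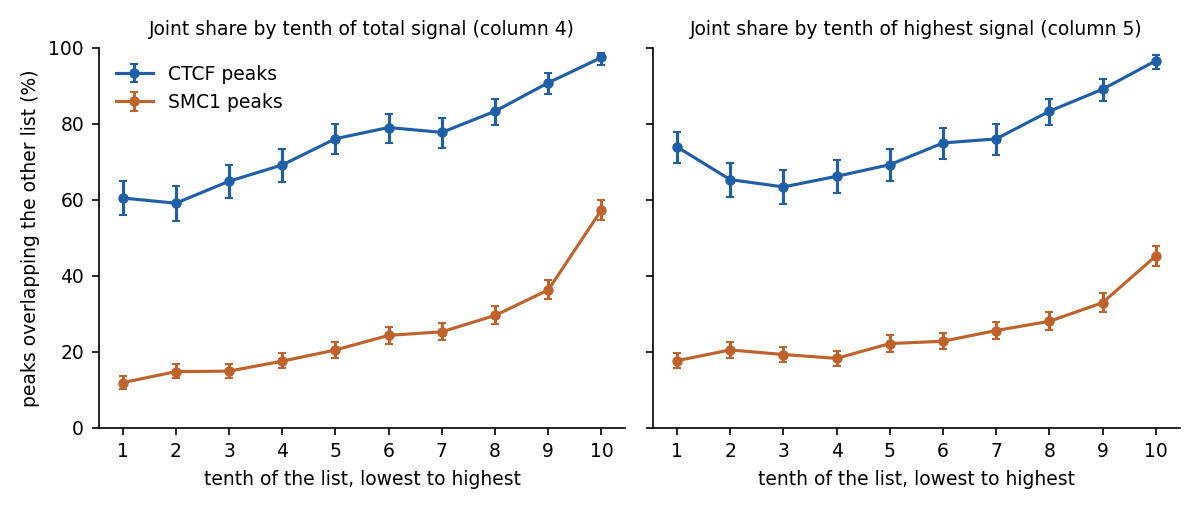
Share of CTCF peaks (blue) and SMC1 peaks (orange) that overlap the other list, in %, by decile of total signal (left) and of highest signal (right) from lowest to highest, with exact 95% intervals. The CTCF share climbs to 97.4% in the top decile of total signal, and by highest signal the lowest decile (73.9%) stands above the third (63.4%).

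The strongest CTCF peaks nearly all carried SMC1. The joint share rose from 60.5% in the lowest decile of CTCF total signal to 97.4% in the top decile, where 456 of 468 peaks were joint. In the SMC1 list it rose from 11.9% to 57.4%. Width also went with the joint share, and its part in the rise was not tested. Split by highest signal instead, the share in the narrowest of 3 width classes of the CTCF list was 62.2% for peaks of low highest signal and 85.2% for those of high, and in that of the SMC1 list 14.0% and 19.6%. In the widest class of the SMC1 list the share went from 23.5% to 50.7%.

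Ordered by highest signal, the CTCF list had a higher joint share at its bottom end than just above it. The lowest decile (highest signal from 10 to 27) was joint in 73.9% of 468 peaks (interval 69.7 to 77.9%), against 63.4% in the third decile (58.8 to 67.8%). These peaks were broad and low, with a median width of 2199 bp against 1717 bp in the third decile, and 50% of them were at promoters against 32.3%. The lowest total signal listed was 14246, so a peak of low highest signal could be listed only with enough width. Their breadth is therefore partly set by how the list was made. By width alone the joint share went from 70.5% in the narrowest decile of the CTCF list to 86.1% in the widest. Their joint share was 85.9% at promoters and 62.0% at distal positions, both above the 77.5% and 56.6% of the third decile. The SMC1 partners of the lowest decile had a median percentile of 74.1 by total signal, and the summits of such pairs lay a median 141.5 bp apart. Width, promoter position and SMC1 rank all moved with this upturn, and their part in it was not tested.

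Within joint pairs the ranks of the antibodies went together only loosely. Spearman's rho of total-signal percentiles was 0.28 over 3542 pairs, 0.31 over the 2036 distal and 0.22 over the 1506 promoter pairs. The points share 1 library per antibody, and the widths of paired peaks correlated as well (rho 0.34). Of 456 joint pairs with the CTCF peak in its top decile, 228 (50%) had the SMC1 peak in its own top decile, against 14.9% of the 282 pairs with the CTCF peak in its lowest decile. SMC1 outranked CTCF by over 50 points in 462 pairs, 57.1% of them at promoters, and CTCF outranked SMC1 by as much in 177 pairs, 37.3% at promoters.

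The pairs of most unequal rank were named by rule. CTCF outranked SMC1 most at PDE4A, a cAMP phosphodiesterase, where the CTCF percentile was 97.4 and the SMC1 percentile 0.880, with summits 116 bp apart. A distal pair in DBN1, which encodes the actin-binding protein drebrin, had percentiles 98.8 and 3.33, and the promoter of the non-coding gene LINC02716 had 96.2 and 0.931. The opposite order was widest at PPM1B-DT, a non-coding gene divergent from the phosphatase gene PPM1B, with a CTCF percentile of 1.305 and an SMC1 percentile of 97.3. METRNL, a secreted meteorin-like factor, had 0.931 and 96.3 with both summits on the same base, and GPR37, an orphan receptor, 3.445 and 98.5.

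Summits of joint pairs lay close together without a preferred side. The median distance was 59 bp (interval 56 to 63 bp), 64.9% of pairs were within 100 bp and 92.7% within 500 bp. The SMC1 summit lay to the right of the CTCF summit along the chromosome in 1656 pairs, to the left in 1645 and on the same base in 241. Within 10 bp lay 777 pairs (21.9%). The 116 pairs over 1000 bp apart (3.27%) reached 5059 bp.

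**Figure D2:**
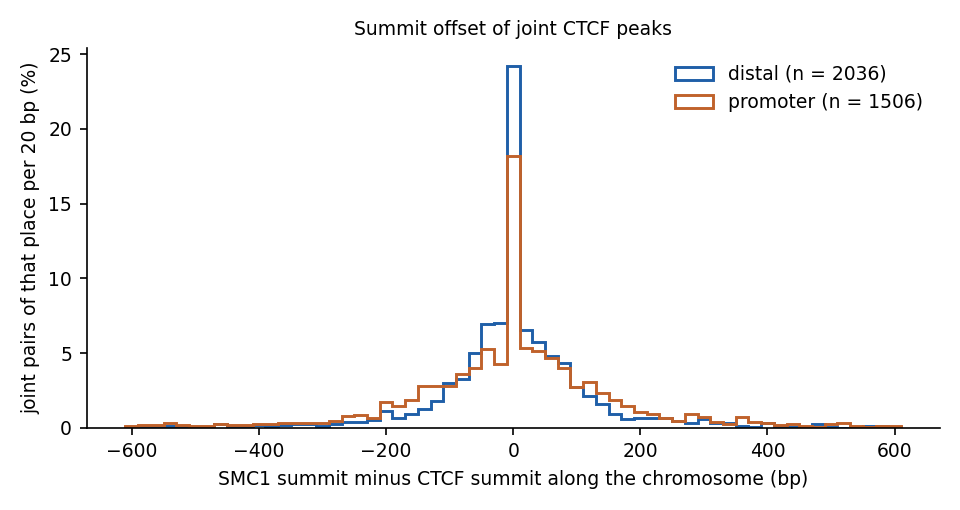
Distance from the CTCF summit to the SMC1 summit along the chromosome, in bp, for distal (blue, n = 2036) and promoter (orange, n = 1506) joint pairs, as % of pairs of that place per 20 bp, with the farthest pairs outside the axis. Both distributions are centred on 0, and the distal one is the more concentrated, with 24.6% of pairs within 10 bp against 18.3%.

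Promoter pairs were looser than distal pairs. The median distance was 77 bp at promoters (72 to 85 bp) and 49 bp at distal positions (45 to 53 bp). Distance grew with peak width, from 44 bp in the narrowest quartile of CTCF peaks to 77.5 bp in the widest, and from 40 bp to 94.5 bp over SMC1 widths. It was largest, at 101 bp, in the lowest quartile of CTCF highest signal and 41 bp in the third quartile. Along protein-coding genes the pairs showed no order either: of 1290 pairs, SMC1 was downstream in 620, upstream in 591 and on the same base in 79. Both summits lay just before the 5′ end, at medians of -82 bp for CTCF and -89 bp for SMC1.

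CTCF-only peaks were mostly distal. A promoter peak here has its summit within 1 kb of the outermost 5′ end of a RefSeq gene. Promoter peaks made up 23.8% of CTCF-only peaks (269 peaks, interval 21.3 to 26.4%) and 42.5% of joint CTCF peaks (1506, 40.9 to 44.2%), a difference of 18.7 points. Of CTCF-only peaks, 48.5% lay inside genes and 27.7% between genes. Seen the other way, 84.8% of promoter CTCF peaks were joint, against 70.5% of those inside genes and 69.8% of those between genes. With joint redefined as 100 bp summit windows that overlap, 48.9% of CTCF peaks were joint and the difference was -1.74 points, and with 1 kb windows it was 19.3 points, so the excess of promoters among joint CTCF peaks was not seen when only close summits counted.

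SMC1-only peaks were at promoters almost as often as joint SMC1 peaks. Promoters held 40.4% of SMC1-only peaks (4491, interval 39.5 to 41.3%) and 43.0% of joint SMC1 peaks (1614, 41.4 to 44.6%), 2.59 points apart. The sign of that difference turned with the promoter window, to -0.0874 points at 500 bp, and with the 100 bp summit windows, to -4.69 points. Close to the 5′ end the order was the other way: 32.1% of SMC1-only and 29.6% of joint SMC1 summits lay within 250 bp. At protein-coding genes the SMC1-only summits had a median of -68 bp from the 5′ end (interval -72 to -63 bp).

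**Figure D3:**
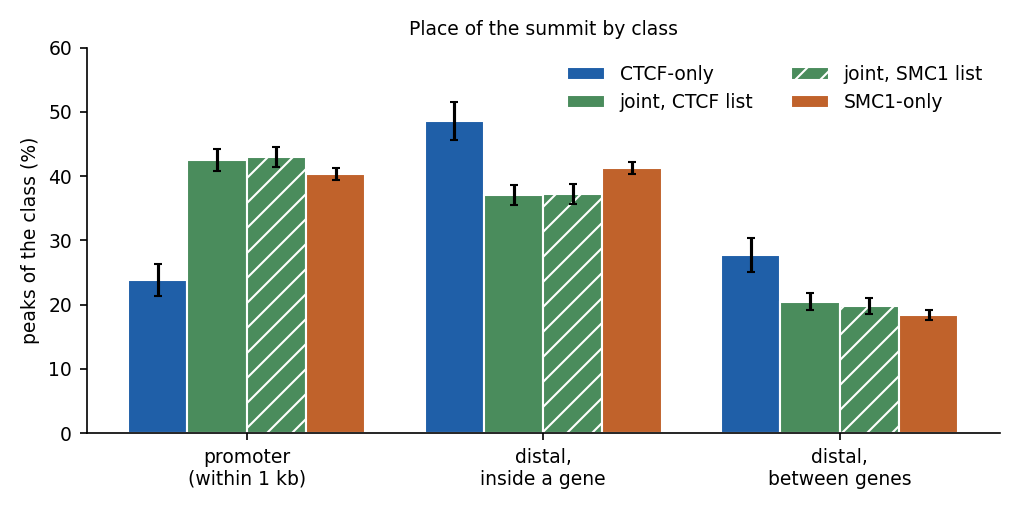
Share of each class of peaks (%, bars with exact 95% intervals) whose summit was at a promoter, distal inside a gene or distal between genes; the hatched bars are joint peaks counted in the SMC1 list. CTCF-only peaks stand apart with 23.8% at promoters, against 40.4% to 43.0% in the other classes.

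Promoter peaks ranked above distal peaks in each class by total signal, and by most in the SMC1 list. The median percentile of joint SMC1 peaks was 78.9 at promoters and 60.3 at distal positions, and that of SMC1-only peaks 53.0 and 38.5. For CTCF the medians were 60.6 and 53.6 in joint peaks and 35.9 and 30.3 in CTCF-only peaks. By highest signal this order held in joint SMC1 peaks alone (69.1 and 56.8). It was the other way in joint CTCF peaks, at 52.6 for promoters and 55.9 for distal positions, and the medians of promoter and distal peaks were equal in CTCF-only (36.2) and SMC1-only peaks (44.6).

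The highest peaks of each class were taken by the mean of the total-signal and highest-signal percentiles, over both lists for joint peaks, and are given with their total-signal percentiles. Those of the joint class included non-coding and repeated sequence. The joint promoter peak of highest mean was at MTATP6P1, a chromosome 1 copy of mitochondrial sequence, with the highest signal of each list (945 for CTCF and 458 for SMC1) and summits on the same base. Mitochondrial DNA itself held 27.7% of the listed signal of the CTCF list and 12.4% of the SMC1 list, and its part in the MTATP6P1 peak was not tested. Next came the WDR38 promoter shown above, with CTCF and SMC1 percentiles of 99.6 and 99.6 and summits 155 bp apart, and RN7SL2, which encodes the RNA of the signal recognition particle, with 99.7 and 99.5. The highest distal joint peaks were a 6882 bp peak in LOC102724701 on chromosome 21, a peak 5384 bp from LINC00974 on chromosome 17 and a peak in KIF17, a kinesin gene. At KIF17 the percentiles were 98.6 and 99.5 and the summits 37 bp apart.

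The CTCF-only promoters of highest mean percentile were those of DHRS4, a carbonyl reductase (total-signal percentile 96.0), of the non-coding LOC124902947 inside GLI1 (85.0) and of KDM3B, a histone H3K9 demethylase (84.7). The distal CTCF-only peaks of highest mean percentile were near the pseudogene CICP4 (94.05), in VPS51 beside TM7SF2, a sterol reductase (98.5), and near DAND5, a secreted antagonist of Nodal (94.97). Strong CTCF-only peaks were therefore present, although 97.4% of the top decile was joint.

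The SMC1-only promoters of highest mean percentile were those of WDFY2, an endosomal protein (99.9), EEPD1, an endonuclease-like protein (99.7), and CLIC4, a chloride channel protein (99.3). The distal ones were in DRC4 beside GAS8-AS1 (99.99, in a 3377 bp peak), in SUSD1 (99.7) and in SLC39A10, a zinc transporter (99.4). No listed CTCF peak overlapped them, so SMC1 at the top of its own list occurred outside listed CTCF peaks at promoters and at distal positions.

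Over 19626 protein-coding genes with a known strand, 1630 had a joint promoter peak (8.31%), 4623 an SMC1-only peak (23.6%) and 222 a CTCF-only peak (1.13%), while 13149 (67.0%) had none and 2 had separate peaks of both. A gene counts as joint where a joint peak of either list has its summit within 1 kb of the 5′ end. The median SMC1 percentile was 81.0 at joint genes and 55.0 at SMC1-only genes, and the median CTCF percentile 60.1 at joint genes and 35.1 at CTCF-only genes. These shares are the background for the gene lists that follow, whose members are counted without a test.

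**Figure D4:**
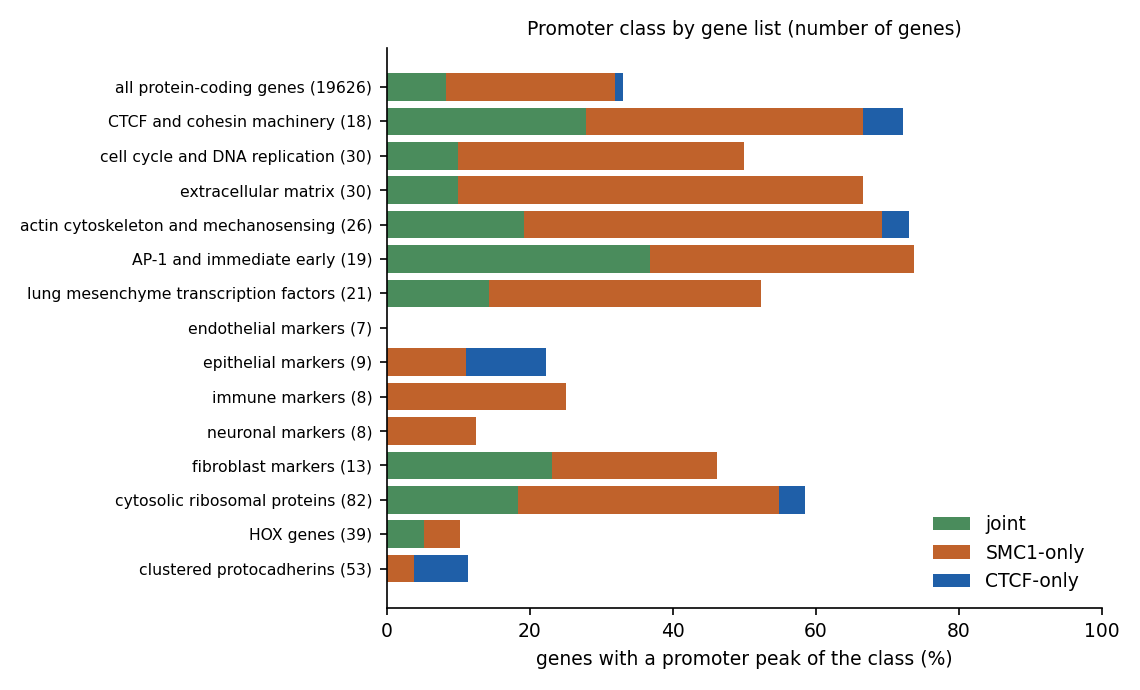
Share of genes in each list (%) with a joint (green), SMC1-only (orange) or CTCF-only (blue) promoter peak, with the number of genes in brackets and all 19626 protein-coding genes at the top. With whole peaks matched, as drawn, the immediate early list has the largest joint share (7 of 19, or 2 of 19 with 100 bp summit windows), and clustered protocadherins have no joint gene and 4 CTCF-only genes.

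The cells' own label was checked first. Of 13 fibroblast markers, 6 had an SMC1 promoter peak (46.2%, against 31.9% of all protein-coding genes): VIM, COL1A1 and PDGFRA were joint, and COL1A2, PDGFRB and TWIST1 SMC1-only. COL1A1 and PDGFRA counted as joint through an SMC1 peak whose CTCF partner has its summit beyond 1 kb. With 100 bp summit windows 1 of the 13 markers was joint. COL3A1, THY1, S100A4, FAP, DCN, LUM and PRRX1 had no listed promoter peak. Of the other cell types, 0 of 7 endothelial markers had a peak, and the few others were ELF3 (CTCF-only) and KRT8 of 9 epithelial, CD14 and CD68 of 8 immune and TUBB3 of 8 neuronal markers, all SMC1-only but ELF3. TUBB3, a tubulin, had the highest SMC1 percentile of these, 91.1. A promoter peak is not a measure of expression.

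Genes of the CTCF and cohesin machinery were also among those with listed peaks. Of 18, 5 were joint (27.8%), 7 SMC1-only (38.9%) and 1 CTCF-only (5.56%). Over all protein-coding genes the shares were 8.31%, 23.6% and 1.13%. The 5 with none were the ring subunit RAD21 and ESCO2, CDCA5, HDAC8 and SGO1. At STAG1, 1 of the alternative STAG subunits of cohesin, total signal was 68623 for CTCF and 33845 for SMC1 (percentiles 94.6 and 99.7) and the summits were 1 bp apart, at -73 and -74 bp from the 5′ end. The CTCF gene had percentiles of 95.1 and 95.7, with summits 562 bp apart on either side of its 5′ end. PDS5B, a cohesin regulator, had 33.45 and 77.3, ESCO1, which acetylates SMC3, had 86.4 and 58.5, and PDS5A had 93.3 and 36.0. The ring subunits SMC3 (SMC1 percentile 84.2) and SMC1A (42.5), the loader MAU2 (37.9), WAPL (35.7) and STAG2, an alternative to STAG1 (6.38), were SMC1-only. NIPBL, the other loader subunit, was CTCF-only, with a CTCF percentile of 29.3 by total signal and 4.22 by highest signal, and with the nearest listed SMC1 peak 181335 bp away.

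Immediate early genes, which growth signals switch on within minutes, had the largest joint share of the lists when whole peaks were matched. Of 19, 7 were joint (36.8%, against 8.31% of all protein-coding genes), 7 SMC1-only (36.8%, against 23.6%) and 0 CTCF-only. JUN had an SMC1 total signal of 45213 (percentile 99.9) and a CTCF total signal of 25816 (60.6), with summits 112 bp apart. EGR1 had percentiles of 99.7 for CTCF and 99.5 for SMC1, with summits 725 bp apart. MYC and JUND were joint through SMC1 peaks of percentiles 99.7 and 95.6 whose CTCF partners have their summits beyond 1 kb. In the other joint genes the CTCF percentile by highest signal was 98.5 at EGR1 and 89.9 at NR4A1. It was 13.7 at JUN and DUSP1 and 0.642 at IER2. Among SMC1-only members, FOSL2, FOS and JUNB had SMC1 percentiles of 95.8, 95.7 and 93.9. With 100 bp summit windows the joint count was 2 of 19, against 3 of 18 machinery genes, 10 of 82 ribosomal protein genes and 830 of all genes, so the list no longer led.

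Among contractile and matrix genes of fibroblasts SMC1-only was the most frequent class of promoter peak, as it was over all protein-coding genes. The shares over all of those were 23.6% SMC1-only, 8.31% joint and 1.13% CTCF-only. Of 26 actin and mechanosensing genes, 5 were joint (19.2%), 13 SMC1-only (50%) and 1 CTCF-only (3.85%). MYH9, a non-muscle myosin (percentile 98.8), TAGLN2 (96.8) and VCL, vinculin of focal adhesions (95.5), led the SMC1-only genes. The joint genes VIM, the intermediate filament vimentin, CCN2, a YAP target, and TAGLN, transgelin, had SMC1 percentiles of 98.8, 98.05 and 89.5. The CTCF peaks of these 3 genes were low in highest signal: total-signal percentiles were 40.4, 35.25 and 42.7, and highest-signal percentiles 3.37, 1.69 and 0.375. The other joint genes were unlike them: ZYX, zyxin of focal adhesions, had CTCF percentiles of 92.9 by total and 83.9 by highest signal, and MYL9, a myosin light chain, 74.6 and 44.35. The CTCF-only gene was ACTB, beta-actin, with a CTCF percentile of 74.8, and the nearest listed SMC1 peak lay 1342 bp away, while the high-passage SMC1 list had a peak that overlapped.

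Of 30 extracellular matrix genes, 3 were joint (THBS1, LOX and COL1A1), 17 SMC1-only and 0 CTCF-only. The joint share of 10% was near the 8.31% of all protein-coding genes, and the SMC1-only share was 56.7% against 23.6%. THBS1, thrombospondin, had an SMC1 percentile of 99.97 and a CTCF percentile of 90.6, but its summits were 680 bp apart. COL1A2, a chain of type I collagen, ranked highest of the SMC1-only members by total signal (98.95), followed by COL5A1 (96.9) and SPARC, a collagen-binding glycoprotein (93.3). The COL5A1 summit lay 1000 bp from the 5′ end, at the edge of the promoter window. By highest signal the percentile was 63.5 at COL5A1, 94.5 at COL1A2 and 95.75 at SPARC. COL1A1, the other chain, was joint with an SMC1 percentile of 88.4. At LOX, a collagen crosslinking enzyme, and COL1A1 the CTCF summit lay beyond 1 kb, and with 100 bp summit windows the joint count of the matrix list was 0.

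Cell cycle and replication genes had 3 joint, 12 SMC1-only and 0 CTCF-only members of 30. The joint share of 10% was near the 8.31% of all protein-coding genes, and the SMC1-only share was 40% against 23.6%. PCNA, the sliding clamp of replication, had CTCF and SMC1 summits on the same base at -240 bp from its 5′ end, with percentiles of 77.35 and 97.2. LMNB1, lamin B1, was joint through an SMC1 peak of percentile 69.2 whose CTCF partner has its summit beyond 1 kb. TOP2A, topoisomerase II, had an SMC1 percentile of 65.75 with a CTCF percentile of 2.79. The SMC1-only members of highest rank were HMGB2 (96.6), HMGB1 (90.9), the chromatin proteins that ICM binds, and AURKA, a mitotic kinase (88.4).

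Lung mesenchyme transcription factors had 3 joint (14.3%, against 8.31% of all protein-coding genes), 8 SMC1-only (38.1%, against 23.6%) and 0 CTCF-only members of 21. TBX3 was joint with an SMC1 percentile of 99.3 and a CTCF percentile of 52.5, SNAI2 with 96.7 and 54.2, and GLI1, the Hedgehog effector, with 45.9 and 89.8 and summits 9 bp apart. SOX9, TBX2 and FOXF1 were SMC1-only with percentiles of 98.5, 98.0 and 96.8. Among 82 cytosolic ribosomal protein genes, 15 were joint (18.3%), 30 SMC1-only (36.6%) and 3 CTCF-only (3.66%). Of all protein-coding genes 8.31% were joint, 23.6% SMC1-only and 1.13% CTCF-only. RPL7 had an SMC1 percentile of 99.25 and a CTCF percentile of 71.8, RPL35 83.7 and 18.2, and RPL26 82.9 and 97.5. By highest signal the CTCF percentiles were 12.1 at RPL7, 5.17 at RPL35 and 98.5 at RPL26. The CTCF-only genes RPL38, RPL10 and RPL6 had CTCF percentiles of 46.7, 30.5 and 30.5.

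The large developmental clusters had few listed promoter peaks. Among HOX genes 89.7% had none, and among clustered protocadherins 88.7%, against 67.0% of all protein-coding genes. Of 39 HOX genes, HOXA5 and HOXB5 were joint, with CTCF percentiles of 56.15 and 61.3, SMC1 percentiles of 70.3 and 59.0 and summits 62 and 26 bp apart. HOXA4 was SMC1-only at a percentile of 21.4.

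Clustered protocadherins, cell-surface proteins many of whose alternative promoters hold a CTCF site, had 0 joint genes of 53, 4 CTCF-only (7.55%, against 1.13% of all genes) and 2 SMC1-only. All 6 were in the gamma cluster on chromosome 5. The CTCF summits of PCDHGA2, PCDHGB1, PCDHGB4 and PCDHGA11 lay 29, 115, 34 and 12 bp after the 5′ end, with total signals of 22106, 15566, 17566 and 17831 and percentiles of 47.0, 11.6, 24.9 and 26.4. The nearest listed SMC1 peak was 77871, 66143, 28772 and 2639 bp away. The SMC1-only genes PCDHGB7 and PCDHGC3 had SMC1 percentiles of 12.6 and 62.8. None of the 4 CTCF-only peaks overlapped a peak of the SMC1 lists of ICM-treated or high-passage cells. PCDHGB4 and PCDHGA11 overlapped a CTCF peak of ICM-treated cells, and none of the 4 one of high-passage cells.

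No promoter window of the 4 held the CTCF letters searched above. They are shown with the letters CGCTGTNNNCC, chosen after the windows were read, because the windows of 3 of them share these letters upstream of the CTCF summit. The stretches run 5′ to 3′ on the plus strand of GRCh38.p14 (RefSeq), with the shared letters in capitals.
PCDHGA2 (chr5:141338710-141338738): tctgagcgtCGCTGTTGACCacctaagga
PCDHGB1 (chr5:141350032-141350060): tctgggcgcCGCTGTCGACCaaaaggaag
PCDHGB4 (chr5:141387624-141387652): tctgggcgcCGCTGTTGGCCaaagtggag
The CTCF summit lay 65, 168 and 94 bp downstream of their centre. The letters, on either strand, were in 23 of 52 protocadherin windows (44.2%), against 1.403% of all promoter windows. By gene they were in 20 of 47 protocadherin genes with a window, so most protocadherin genes with them had no listed CTCF promoter peak.

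The control classes could also be followed in lists that had no part in defining them. CTCF-only peaks recurred in the other CTCF lists nearly as often as joint peaks: 90.1% overlapped a CTCF peak after ICM and 90.8% one at high passage, against 95.8% and 90.8% of joint peaks. In the other SMC1 lists they overlapped a peak less often, at 31.6% and 27.9%, against 89.5% and 81.5% of joint CTCF peaks. The classes were themselves defined by overlap with the control SMC1 list, so a difference in this direction is built into them in part. Of CTCF-only peaks 497 (43.9%, interval 41.0 to 46.9%) met an SMC1 peak in at least 1 of the other SMC1 lists, with 47.7% at distal positions and 32.0% at promoters.

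**Figure D5:**
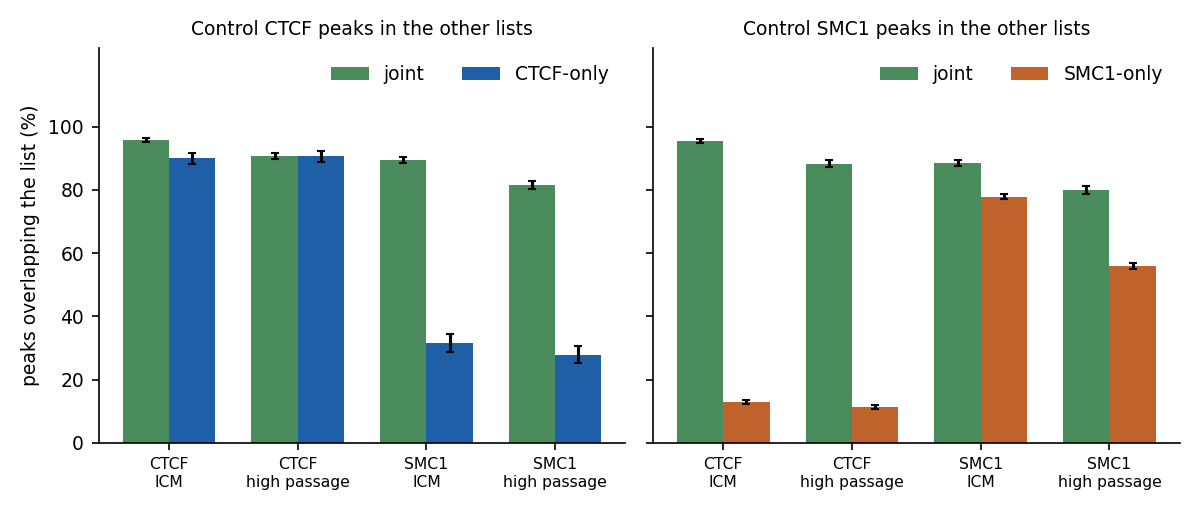
Share of control CTCF peaks (left) and control SMC1 peaks (right), in % with exact 95% intervals, that overlap a peak of each of the other lists, joint peaks in green. CTCF-only peaks reach 90.1% and 90.8% in the CTCF lists but 31.6% and 27.9% in the SMC1 lists.

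SMC1-only peaks were kept less often than joint SMC1 peaks in the SMC1 lists, at 77.8% after ICM and 56.0% at high passage, against 88.5% and 80.1%. In the CTCF lists 12.9% and 11.3% of SMC1-only peaks overlapped a peak. By place they differed between those lists: SMC1-only promoters overlapped CTCF peaks of ICM cells in 14.9% and of high-passage cells in 6.99%, distal SMC1-only peaks in 11.5% and 14.2%. Joint CTCF peaks at promoters were listed at high passage in 84.7% of cases and distal ones in 95.2%. Joint peaks of both lists also ranked higher and were wider. For SMC1 the median total-signal percentile was 69.1 against 44.1 in SMC1-only peaks, and the median width 1047 bp against 872 bp. The lists differ in length as well. The part of rank, width and length in these shares was not tested, and no test between classes is possible with 1 library each.

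CTCF-only peaks were not at the edges of SMC1 peaks. The median gap to the nearest SMC1 peak was 27108 bp (interval 24048 to 31678 bp), with 2.56% of CTCF-only peaks within 1 kb and 42.0% within 20 kb. SMC1-only peaks lay a median 121833 bp from the nearest CTCF peak, the shorter list. By chromosome the joint share of CTCF peaks went from 56.7% on X (67 peaks, interval 44.04 to 68.8%) and 62.7% on 7 (193 peaks, 55.5 to 69.5%) to 87.2% on 21 (39 peaks, 72.6 to 95.7%). In the SMC1 list the joint share was lowest on 18, at 10.9%, where there were 7.89 SMC1 peaks per CTCF peak, and highest on 17 (34.3%) and 19 (34.1%), with 2.45 and 2.199 SMC1 peaks per CTCF peak.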

How the data were processed

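Per the study's methods, fixed cells of each library were processed with a commercial CUT&Tag kit and paired-end reads were placed on GRCh38. The submitters' processing notes name Bowtie2 2.3.4.1, Picard 2.20.7, deepTools and SEACR 1.3. The authors deposited 1 SEACR list (stringent mode, top 1%) per library, whose total and highest signal columns are read coverage over each peak. The study calibrated reads to E. coli DNA, but whether the deposited signal carries that scaling is not given in the sources used here. 1 chrM peak per list was left out. Members, gene lists and measures were chosen with earlier results of these data known. The distances from motif letters and the protocadherin letters were added after the data were seen.

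Peaks were matched with Python 3 code (numpy, pandas and scipy), tested on simulated lists. Gene bodies came from RefSeq (GRCh38.p14), with strand from the RefSeq promoter table for 27194 genes and from GENCODE 44 by symbol for 19859 of 59094. The 79.6% of genes with a strand could mark a promoter. The named peaks were, by rule, the 3 of highest mean percentile per class and place, the 3 pairs of most unequal rank in each order, the 3 CTCF peaks with most partners and up to 3 genes per list and class (joint genes by SMC1 percentile), and other list members are named beside their counts after their values were seen. Alternatives changed the matching, the list thresholds, the promoter window and the ranking column. The values of 1 listed gene are not reported here.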

Additional observations from a re-analysis of the deposited data

Results flagged for a closer look

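Several differences in place went in opposite directions in the lists, a contrast that was not tested because each list is 1 library. Summits within 100 bp of a 5′ end were 4.79 percentage points more frequent among joint than CTCF-only peaks, and -2.55 points among joint relative to SMC1-only peaks. Within 250 bp the differences were 11.7 and -2.54 points, and within 500 bp 15.5 and -0.0874 points. Distal positions between genes were rarer in joint than CTCF-only peaks by 7.23 points (-7.23) and more frequent in joint than SMC1-only peaks by 1.41 points.

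The chrM peak, which no comparison used, held 27.7% of the listed signal of the CTCF list and 12.4% of that of the SMC1 list. It spans 16569 bp, and its presence was noted because it lies outside the chromosomes compared.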

How the results depend on the processing

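Joint peaks made up 75.8% of CTCF and 25.2% of SMC1 peaks with whole peaks, and the lists' length and the matching moved these most. With 100 bp summit windows the shares were 48.9% and 15.4% and the median offset 28 bp. That rule matches only summits less than 100 bp apart, so it limits the offset by itself. With these windows the promoter differences were -1.74 points (joint minus CTCF-only) and -4.69 points (joint minus SMC1-only), and the rank differences 8.88 and 19.0 points. With 1 kb windows the shares were 73.4% and 23.2%. In the upper 50% of each list they were 66.8% and 21.9%, with an offset of 67 bp, promoter differences of 14.4 and -0.975 points and a CTCF rank difference of 19.4 points. With the SMC1 list reduced to the CTCF length by total signal they were 39.8% and 40.6%, with 72 bp, a CTCF promoter difference of 23.5 points and an SMC1 rank difference of 20.9 points. By highest signal they were 34.9% and 35.5%, with 54 bp, an SMC1 promoter difference of 7.71 points and a rank difference of 27.6 points. The SMC1 promoter difference was -0.0874 points for a 500 bp window and 8.41 points for 5 kb. Ranked by highest signal, the rank differences were 19.8 and 19.0 points. The causes were not tested. Of 60 alternative values of 7 results, 31 moved by less than their counting interval. No paired analysis was possible because each antibody and state had 1 library and the labels give no replicate numbers, which also left no library to omit.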
